A study of Mus musculus with 24 samples.

Results

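The 9 genes described here are named for the attachment of leukocytes to vessel walls and for the identity and activation of endothelial cells: Icam1, Icam2, Vcam1, Vwf, Selp, Sele, Cdh5, Eng and Tek. They were chosen by symbol, and all 9 are among the 33000 genes counted. Of the 9, 7 had enough counts to be tested between genotypes, while the selectins Selp and Sele did not pass the filter on low counts and are given as counts.

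Leukocytes leave the blood in steps. Selectins on activated endothelium, P-selectin (Selp) and E-selectin (Sele), catch rolling cells, after which the immunoglobulin-like molecules ICAM-1, ICAM-2 and VCAM-1 are bound by leukocyte integrins and hold the cells still. Von Willebrand factor (Vwf) is packed together with P-selectin in the Weibel-Palade bodies of endothelial cells, which are emptied on activation, and it also binds platelets. VE-cadherin (Cdh5) joins endothelial cells at their junctions, endoglin (Eng) is a co-receptor for ligands of the TGF-beta and BMP family, and Tek, also called Tie2, is the receptor for the angiopoietins. In normal brain endothelium the inducible molecules among these are kept low, and inflammatory cytokines are known to raise ICAM-1, VCAM-1 and the selectins through NF-kB and STAT factors.

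The RNA came from the frontal cortex of 3 WT and 3 homozygous GFAP-IL6 mice of the C57BL/6 strain, all 3 months old. GFAP-IL6 mice carry an Il6 transgene under the promoter of Gfap, so that astrocytes and not endothelial cells are the intended source of the cytokine. Each mouse gave 4 libraries of the 3'Pool-seq method, which reads the 3′ end of polyadenylated RNA, with 2 ng or 1 ng of cDNA in the tagmentation step in each of the sets called A and B. The labels do not say what separates the sets. The 4 libraries of a mouse came from the same RNA, so their counts were summed and the mouse was the replicate.

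The 24 libraries held between 1524165 and 12256374 counts, and the sums per mouse ran from 7852743 to 37582644. Levels are given in CPM after correction for library size and, by TMM, for library composition, and genotypes were compared with edgeR's quasi-likelihood test and Benjamini-Hochberg adjusted p-values over 14621 genes. A gene was called at an adjusted p under 0.05. Il6 was at 0.260, 0.166 and 0 CPM in the WT mice and at 3.16, 1.58 and 4.23 CPM in the GFAP-IL6 mice, and Gfap rose from 20.0 ± 3.78 to 109.7 ± 33.4 CPM (SD, n = 3 mice each), so both genes went with the labels. The median log2 fold change of all genes tested was -0.01.

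Promoter sequence from RefSeq on GRCm38.p6 (mm10), from 250 bases before to 50 bases after the start, was at hand for 5 of the 9 genes, Icam1, Selp, Sele, Eng and Tek. The windows were searched on both strands for the STAT motif TTCNNNGAA, for the TATA box TATAAA and for the NF-kB consensus. The matches are shown because STAT3 is the main transcription factor of the IL-6 receptor. Capitals mark the matched letters, all on the plus strand, which is the strand of both genes.
Icam1, STAT motif, chr9:21015890-21015914: cgcgaggtTTCCCGGAAagtggccc
Sele, STAT motif, chr1:164048086-164048110: agtggataTTCCCAGAAaacttttt
Icam1, TATA box, chr9:21015945-21015966: ccagagacTATAAAagcgccgc
Sele, TATA box, chr1:164048177-164048198: agctccccTATAAAgaggctcc

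In Icam1 the STAT match began 42 bases before the RefSeq start and 87 bases before the GENCODE start, and the TATA box began 13 bases after the RefSeq start and 32 bases before the GENCODE start. In Sele they began 140 and 49 bases before the start. The STAT motif was found in 8.3% of 32851 promoters of the same length and the TATA box in 13.6%. Both occurred together in 1.25% of them, as they did in Icam1 and Sele. The NF-kB consensus, present in 4.51% of all promoters, matched none of the 5 windows, and the windows of Selp, Eng and Tek held none of the 3 motifs. A match or its absence describes these letters in this window and not the binding of a factor.

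Of the 7 genes tested, 3 rose in GFAP-IL6 cortex, namely Vwf, Icam1 and Icam2, and none fell. Over all genes tested, 1.74% were called higher and 0.0547% lower. The median log2 fold change of the 7 genes was 0.73, and all 7 had a value above 0, which 48.1% of all genes had. The 3 WT and the 3 GFAP-IL6 mice did not overlap in 6 of the 7 genes, against 8.43% of all genes with non-overlapping, higher values in GFAP-IL6 and 5.93% with lower ones. Vwf and Icam1 also passed a threshold of 1 on the log2 fold change, as 1.2% of all genes did in this direction. Each of the 7 had at least 10 counts in every mouse, so none was tested only because of a high GFAP-IL6 level.

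Vwf was at 1.87, 1.94 and 2.49 CPM in the WT mice and at 8.23, 10.7 and 9.36 CPM in the GFAP-IL6 mice. The lowest GFAP-IL6 mouse was above the highest WT mouse by a wide margin, and mice of a genotype lay close together. The mean rose from 2.10 ± 0.341 to 9.43 ± 1.24 CPM (SD, n = 3 mice each), a log2 fold change of 2.22 (SE 0.209, 95% interval 1.77 to 2.67) with an adjusted p of 1.68e-05 by edgeR. This was the largest change among the 7 genes tested.

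Its partner in the Weibel-Palade body, Selp, was close to the limit of detection. The WT mice had 1, 0 and 0 Selp counts and the GFAP-IL6 mice 0, 7 and 17. The groups overlapped through the GFAP-IL6 mouse without a count. That mouse was the shallowest of its genotype, and the part of depth in its missing counts was not tested. In the summed counts Selp stood at 0.0221 CPM in WT and 0.354 CPM in GFAP-IL6, a ratio of 16.0 whose 95% interval of 2.61 to 658.2 covers counting error between the pooled libraries only. An exact permutation test over the mice gave p = 0.4, where the smallest p that 3 against 3 mice allow is 0.1. A mouse with 0 counts may still hold up to 3, which is 0.382 CPM in the shallowest WT mouse.

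Sele, which endothelial cells make anew on activation, was as sparse. Counts were 4, 0 and 0 in WT mice and 1, 6 and 8 in GFAP-IL6 mice. The groups overlapped here as well, through the first mouse of each genotype. The ratio of the summed levels was 2.5 (95% interval for counting error 0.797 to 10.4; exact permutation p = 0.3), so that no difference in Sele was detectable at this depth. Of the 12 libraries of each genotype, 10 WT and 5 GFAP-IL6 libraries had no Sele count, and 11 WT and 5 GFAP-IL6 libraries had no Selp count.

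**Figure D1:**
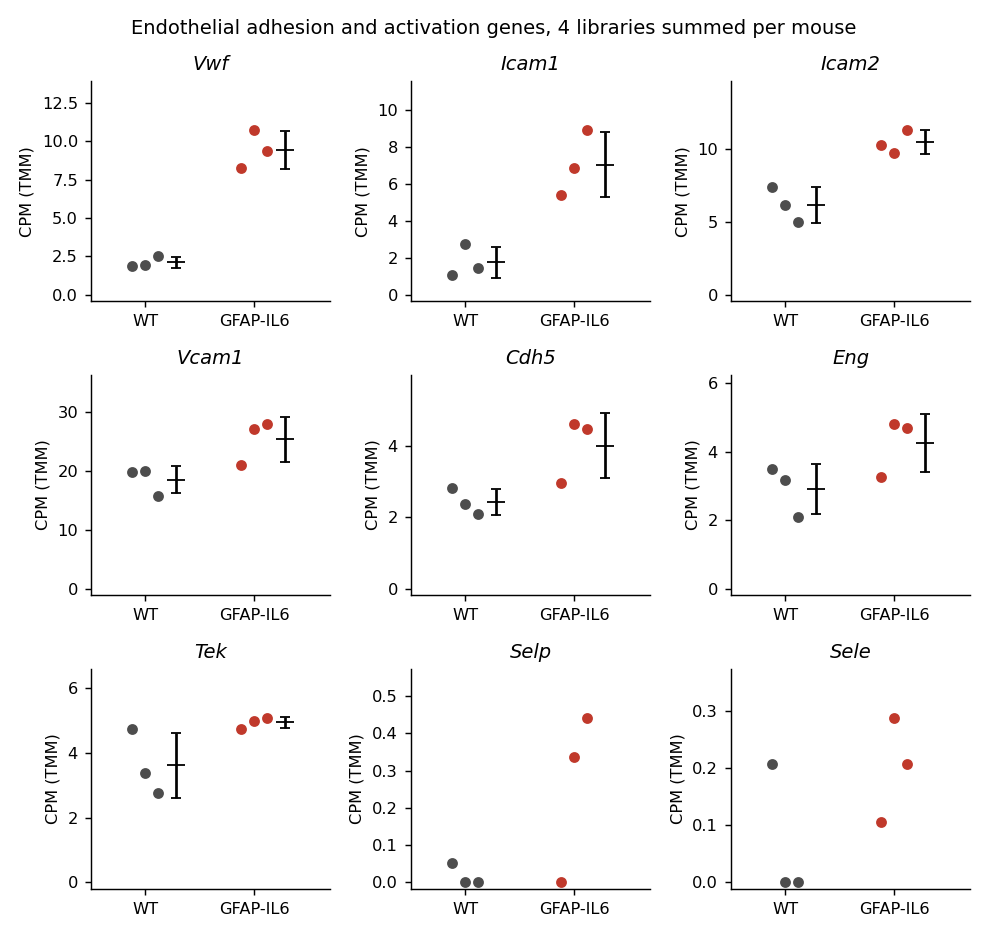
Level of each of the 9 genes in CPM (TMM scaled, linear axes with separate ranges) in each WT (grey) and GFAP-IL6 (red) mouse, the 4 libraries of a mouse summed; the bar beside the points is the mean with its SD over 3 mice, left out for Selp and Sele, whose counts were 17 or fewer in each mouse. Vwf, at 1.87 to 2.49 CPM in WT and 8.23 to 10.7 CPM in GFAP-IL6, and Icam1 were the most separated, while the groups overlapped in Eng, Selp and Sele.

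Among the immunoglobulin-like adhesion molecules, Icam1 changed most. ICAM-1 is the ligand of the beta-2 integrins LFA-1 and Mac-1 and is made by activated endothelium and also by glia. Icam1 was at 1.09, 2.72 and 1.44 CPM in the WT mice and at 5.38, 6.86 and 8.90 CPM in the GFAP-IL6 mice. WT mouse 2 stood above the other two, at 49 counts, but remained below every GFAP-IL6 mouse. Icam1 rose from 1.75 ± 0.854 to 7.05 ± 1.77 CPM (SD, n = 3 mice each), with a log2 fold change of 2.01 (SE 0.305, 95% interval 1.36 to 2.66) and an adjusted p of 0.00153 by edgeR.

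Icam2, another integrin ligand, is made by resting endothelium without a cytokine signal and is also found on leukocytes and platelets. It was at 7.44, 6.15 and 4.99 CPM in WT and at 10.3, 9.74 and 11.3 CPM in GFAP-IL6 mice, without overlap. Icam2 rose from 6.19 ± 1.23 to 10.5 ± 0.794 CPM (SD, n = 3 mice each), by 0.73 on the log2 scale (SE 0.171, 95% interval 0.36 to 1.09; edgeR adjusted p = 0.042). The call rests on the mice used: leaving out any mouse other than WT mouse 1 gave adjusted p-values of 0.0721 to 0.306 (edgeR), with log2 fold changes of 0.63 to 0.78, and leaving out WT mouse 1 gave 0.88 (adjusted p = 0.0291).

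Vcam1, the ligand of the integrin VLA-4 that holds lymphocytes and monocytes, was at 19.7, 19.9 and 15.7 CPM in WT and at 21.0, 27.0 and 27.9 CPM in GFAP-IL6 mice. The groups did not overlap, but GFAP-IL6 mouse 1 was only just above the WT mice. The means were 18.5 ± 2.35 and 25.3 ± 3.76 CPM, and the log2 fold change of 0.45 (SE 0.134, 95% interval 0.17 to 0.74) did not pass the test, with an adjusted p of 0.148 by edgeR. Without GFAP-IL6 mouse 1 it was 0.55 and passed (adjusted p = 0.0375). The upper end of the Vcam1 interval lay below the lower end of that of Icam1, although the difference between the genes was not itself tested. The WT mean of Vcam1 was the highest among the genes described here, above those of Icam2 (6.19 CPM) and Cdh5 (2.43 CPM). Which cells of the cortex the Vcam1 RNA came from was not tested.

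Of the 3 genes of junctions and receptors none passed the test. Cdh5 was at 2.81, 2.38 and 2.10 CPM in WT and at 2.95, 4.61 and 4.46 CPM in GFAP-IL6 mice, which did not overlap (log2 fold change 0.73, SE 0.257, 95% interval 0.18 to 1.28, edgeR adjusted p = 0.301). Eng was at 3.49, 3.16 and 2.10 CPM in WT and at 3.27, 4.80 and 4.70 CPM in GFAP-IL6 mice. Here GFAP-IL6 mouse 1 lay within the WT range (log2 fold change 0.53, SE 0.253, 95% interval -0.01 to 1.07, edgeR adjusted p = 0.581). Tek was at 4.73, 3.38 and 2.76 CPM in WT and at 4.75, 4.99 and 5.08 CPM in GFAP-IL6 mice, so that the groups touched without overlapping (log2 fold change 0.41, SE 0.229, 95% interval -0.08 to 0.90, edgeR adjusted p = 0.686). The intervals leave room for no change in Eng and Tek and for a change as large as that of Icam2 in all 3.

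The sets gave a view of how far each value moved between libraries made from the same RNA. Vwf was called in each of the 4 sets, with log2 fold changes of 1.94 to 2.55 and edgeR adjusted p-values of 0.000131 to 0.00558, where 1.01% to 1.07% of all genes were called higher in a set. Icam1 was called in 3 of 4 sets, with values of 1.62 to 2.60. In the set with 2 ng of cDNA and the label B its adjusted p was 0.0819 (edgeR). Icam2 was called in none of the sets, with values of 0.46 to 0.95, and Vcam1 in none, with 0.34 to 0.61. Eng ranged from 0.20 to 0.998 and Tek from -0.01 to 0.82 over the 4 sets. Cdh5 ranged from 0.61 to 0.75 over the 3 sets in which edgeR could test it. In the set with 2 ng of cDNA and the label B it did not pass the filter. Cdh5 was there at 2.21, 1.57 and 2.03 CPM in WT and 2.59, 6.49 and 2.39 CPM in GFAP-IL6 libraries. DESeq2 gave it a log2 fold change of 0.995 (SE 0.687) in that set. The sets share the mice and are not independent of each other.

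**Figure D2:**
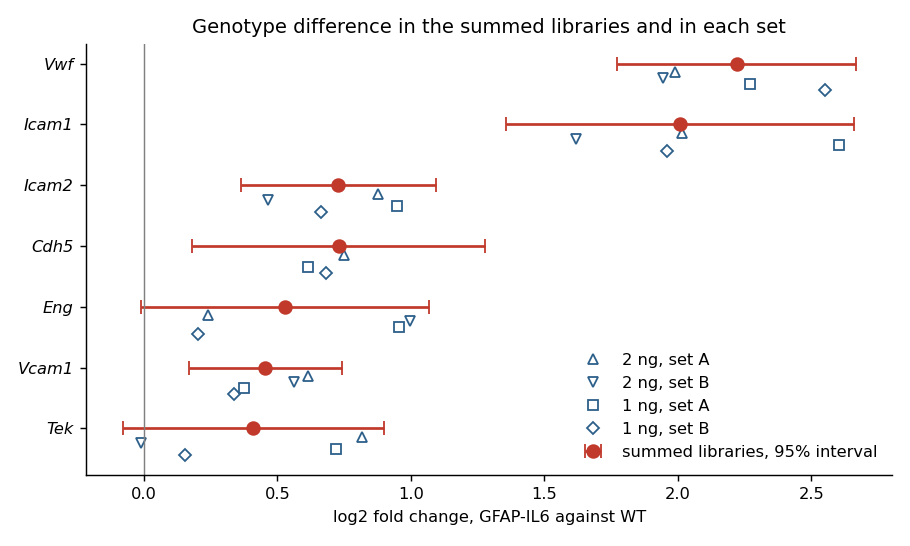
Log2 fold change of GFAP-IL6 against WT for the 7 genes tested; red points are the summed libraries with their 95% interval from edgeR, and open blue symbols are the 4 sets (cDNA amount and set letter). Vwf and Icam1 lie near 2 in all sets, between 1.62 and 2.60, and Tek reaches -0.01 in the set with 2 ng and label B.

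At the level of single libraries, with CPM scaled to the library total alone, the 12 WT libraries held 0.891 to 3.28 CPM of Vwf with a median of 2.27, and the 12 GFAP-IL6 libraries 6.13 to 12.1 CPM with a median of 9.47. For Icam1 the WT libraries ranged from 0.472 to 4.15 CPM with a median of 1.52, and the GFAP-IL6 libraries from 4.45 to 10.6 CPM with a median of 6.42. Neither gene overlapped between the genotypes in single libraries, where a WT library held a median of 7.5 Vwf counts and 5 Icam1 counts. For Icam1 the margin was narrow, from 4.15 CPM in a WT library with 16 counts to 4.45 CPM in a GFAP-IL6 library with 9. The 12 libraries of a genotype came from 3 mice and are not 12 replicates. The share of all genes without overlap in single libraries was not counted. Vcam1 overlapped, at 11.8 to 23.6 CPM in WT and 12.8 to 35.3 CPM in GFAP-IL6 libraries.

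The spread between the 4 libraries of a mouse was set against counting error by a chi-square divided by its degrees of freedom, for which counting error alone gives 1. It was 0.813 for Icam1 and 0.854 for Vwf, so the libraries of a mouse agreed within sampling noise in these genes. It was 1.38 for Cdh5, 1.51 for Tek and 1.63 for Icam2. For Eng it was 2.17 and for Vcam1 3.31, where the libraries of a mouse differed by more than counting error.

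Some of the 7 genes also differed in level between the sets, in shares no higher than among all genes. Between sets A and B, 21.7% of all genes were called by edgeR in either direction with the mouse as a block, and Vcam1 was the single gene called of the 7 tested (log2 difference of A to B 0.24, 95% interval 0.06 to 0.42, adjusted p = 0.0495). Eng was not called there (0.45, edgeR adjusted p = 0.137). With 2 ng of cDNA alone, where 31.6% of all genes were called, Vcam1 was higher in set A by 0.48 (adjusted p = 0.000279) and Eng by 0.92 (adjusted p = 0.0157). With 1 ng alone, where 5.15% were called, none of the 7 genes was. In set A with 2 ng, Vcam1 was at 21.3, 23.9 and 17.7 CPM in WT and 30.9, 32.3 and 34.7 CPM in GFAP-IL6 libraries, and in set B with 2 ng at 15, 18.4 and 12.2 CPM and 18.6, 25.2 and 24 CPM. Each mouse was thus higher in set A than in set B at this amount, while the genotype difference in the sets was 0.61 and 0.56.

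**Figure D3:**
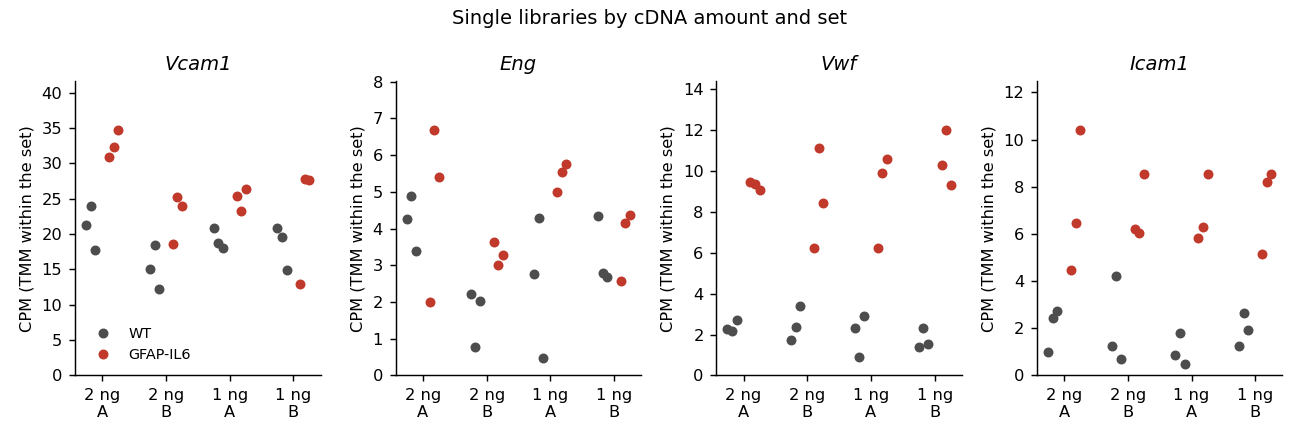
Level of Vcam1, Eng, Vwf and Icam1 in each single library in CPM (TMM scaled within the set, linear axes), by cDNA amount and set, with WT libraries in grey and GFAP-IL6 libraries in red, 3 mice each. Vcam1 was higher in set A than in set B at 2 ng in both genotypes, from 15.2 to 21.0 CPM on average in WT, while Vwf and Icam1 libraries of the 2 genotypes stayed apart in every set.

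Between 2 ng and 1 ng of cDNA 31.2% of all genes were called (edgeR, mouse as a block) and none of the 7 genes was, with log2 differences from -0.17 for Eng to 0.09 for Tek. The 95% intervals of these differences lay between -0.53 and 0.47. In set A alone, where 29.8% of genes were called, Vcam1 was higher with 2 ng by 0.26 (adjusted p = 0.0444), and in set B alone, where 19.8% were called, none of the 7 was. The genotype difference itself was not shown to depend on cDNA amount or set in any of the 7 genes: edgeR called 0 genes of all those tested for either interaction, with 3.86% and 4.18% at an unadjusted p under 0.05. The interaction of genotype with cDNA amount was -0.47 for Vwf (95% interval -1.19 to 0.26) and -0.39 for Icam1 (-1.17 to 0.40). That with the set was -0.16 for Vwf (-0.97 to 0.65) and 0.44 for Icam1 (-0.46 to 1.34), and the largest was 0.70 for Tek (-0.11 to 1.52).

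Summed endothelial marker RNA was also higher in the GFAP-IL6 mice, without overlap. The 15 markers, among them Pecam1, Cldn5 and Flt1, were all detected and summed to 277 to 284 CPM in WT and 316 to 461 CPM in GFAP-IL6 mice, lowest in GFAP-IL6 mouse 1 (exact permutation p = 0.1, the smallest possible). Much of the sum came from Ly6c1, at 69.4 CPM in WT and 121.3 CPM in GFAP-IL6 on average, and Slc2a1, at 64.8 and 96.6 CPM. Of the 15, 3 rose and none fell by edgeR: Flt1 (log2 fold change 0.70), a VEGF receptor, Ly6c1 (0.82), a surface protein of brain capillaries, and Slc2a1 (0.58), the glucose transporter of the blood-brain barrier. None of these calls held with every mouse left out in turn. Flt1 was lost without WT mouse 2 or GFAP-IL6 mouse 2 (edgeR adjusted p up to 0.0595), and Ly6c1 and Slc2a1 without WT mouse 1 or 2 or GFAP-IL6 mouse 2 or 3 (up to 0.0961 and 0.126). Ly6c1 was also lost with DESeq2 (adjusted p = 0.183) and Slc2a1 at equal totals (0.0506). The median of the 15 was 0.55. More endothelial cells and more RNA per endothelial cell cannot be told apart in bulk tissue.

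Each gene was therefore also set against the summed markers of the same mouse. Per 1000 marker counts, Vwf was at 6.73, 6.83 and 8.99 in WT and at 26.0, 23.2 and 21.6 in GFAP-IL6 mice, a 3.11-fold difference without overlap. Icam1 was at 3.93, 9.57 and 5.20 in WT and at 17.0, 14.9 and 20.5 in GFAP-IL6 mice, a 2.92-fold difference without overlap. Both had the smallest two-sided exact permutation p that 3 against 3 mice allow, 0.1, among 9 genes compared. No gene could pass a threshold of 0.05 in this test. The share of all genes without overlap per marker count was not counted.

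Against the same markers Icam2 differed by 0.26 on the log2 scale and its groups overlapped, at 18.0 to 26.7 per 1000 in WT and 21.1 to 32.7 in GFAP-IL6 mice (exact permutation p = 0.5). Groups overlapped in the other genes too, with Cdh5 at 0.18, Eng at 0.04, Tek at -0.04 and Vcam1 at -0.06. Vcam1 was at 70.7, 70.3 and 56.8 per 1000 in WT and at 66.3, 58.5 and 64.4 in GFAP-IL6 mice. These small values depended on the markers: without Slco1a4, Ly6c1 and Slc2a1 the signs for Vcam1 and Tek turned, to 0.10 and 0.12, and Icam2 moved to 0.41, Cdh5 to 0.34 and Eng to 0.19. Without GFAP-IL6 mouse 1 Icam2 was at 0.10. Of the selectins, Selp differed by 1.46 and Sele by 1.05 on counts too few to separate the groups. The cell source of the Vcam1 RNA was not tested, so its value per marker count is not assigned to endothelial cells here.

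**Figure D4:**
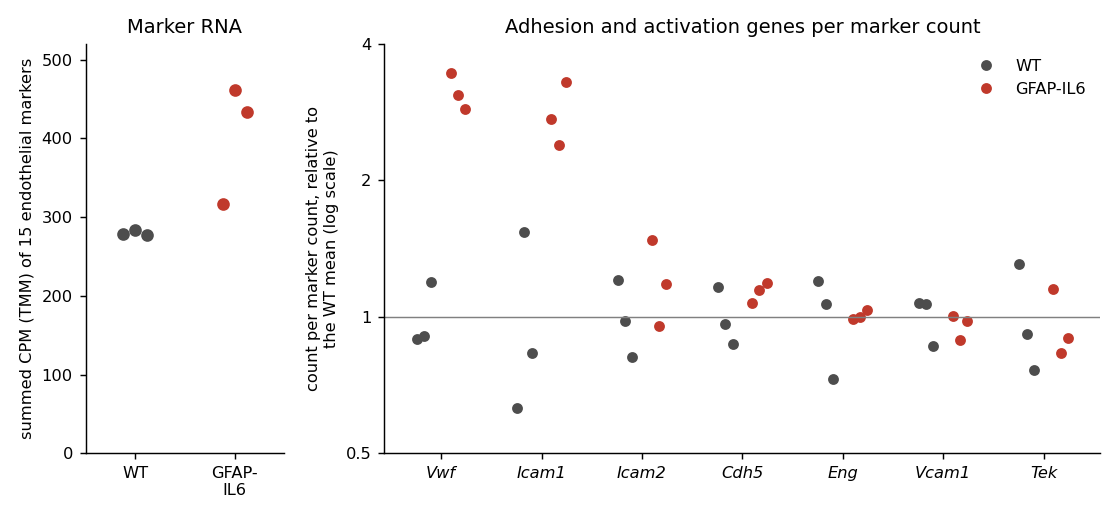
Left, the summed CPM (TMM scaled) of 15 endothelial markers in each mouse; right, the counts of each gene divided by the summed counts of these markers in the same mouse, relative to the WT mean, on a log axis, for 3 WT (grey) and 3 GFAP-IL6 (red) mice. Marker RNA was 277 to 284 CPM in WT and 316 to 461 CPM in GFAP-IL6 mice, and after division by it Vwf and Icam1 stayed apart between genotypes, 3.11-fold and 2.92-fold, while the other 5 genes overlapped.

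Vwf and Selp are also made by megakaryocytes and carried by platelets. The 5 platelet markers summed to 10.1 to 14.7 CPM in WT and 10.2 to 12.5 CPM in GFAP-IL6 mice, and of the 3 tested none was called (median log2 fold change -0.31; Pf4, a platelet chemokine, -0.31, edgeR adjusted p = 0.712). The 5 red cell markers, which would follow blood left in the tissue, had no call either, with a median of -0.05, and Alas2 of heme synthesis had 0.51 (adjusted p = 0.532). The part of platelet RNA in the Vwf values was not tested beyond these sums, which overlapped between genotypes.

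Icam1 and Icam2 can also come from microglia and leukocytes. Of 10 markers of microglia and macrophages 8 rose and none fell, with a median log2 fold change of 0.80, among them Aif1 (1.22) and Trem2 (1.18), and their sum went from 421 to 473 CPM in WT to 698 to 895 CPM in GFAP-IL6 mice. Their part in the Icam1 and Icam2 values was not tested. Of 8 markers of T and B cells, only Cd4 could be tested (-0.24, edgeR adjusted p = 0.959), and Cd8a, Cd79a and Ms4a1 had 3 or fewer counts in each mouse. The chains of the T cell receptor complex were as sparse apart from GFAP-IL6 mouse 3, with Cd3g at 0, 2 and 0 counts in WT and 2, 1 and 20 counts in GFAP-IL6 mice and Cd3e and Cd3d at 8 counts each in that mouse and 3 or fewer in the others. GFAP-IL6 mouse 3 was the deepest, at 37582644 counts in all, against 45187378 in the 3 WT mice together. The part of depth in its Cd3 counts was not tested. Of 8 markers of neutrophils and monocytes 3 could be tested and none was called, with Ccr2, the receptor of CCL2 on monocytes, at 1.26 (adjusted p = 0.668), and the marker sum overlapped, at 0.787 to 4.38 CPM in WT and 2.85 to 7.76 CPM in GFAP-IL6 mice.

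The receptors that leukocytes use to bind these molecules moved in part. Of 12 integrins, selectin ligands and related genes 6 could be tested, and 2 rose, Itgam (1.6, edgeR adjusted p = 7.47e-05) and Itgb2 (1.71, adjusted p = 0.000273). Together they encode the chains of Mac-1, a receptor for ICAM-1 that microglia also carry. Itgam was at 6.45, 5.87 and 5.77 CPM in WT and 13.5, 18.6 and 22.1 CPM in GFAP-IL6 mice. The median of the 6 was 0.44.

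Among 16 other molecules listed for leukocyte entry 13 were tested and 3 rose, with a median of 0.22. F11r, the junctional adhesion molecule A, had a log2 fold change of 1.42 (edgeR adjusted p = 0.00053) and was at 3.69, 3.16 and 4.46 CPM in WT and 8.23, 10.4 and 10.6 CPM in GFAP-IL6 mice. Podxl, a sialomucin of vessel lumens, had 1.18 (adjusted p = 0.00153). Ackr1, the atypical chemokine receptor of venules, had 0.57 (adjusted p = 0.0234), a call that was lost without WT mouse 1 or 2 or GFAP-IL6 mouse 2 or 3 (adjusted p up to 0.232). Pecam1 and Esam are also among the endothelial markers above.

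Some partners of the junction, receptor and storage genes were called, where 1.74% of all genes tested were called higher. None of 6 partners of VE-cadherin was called, with a median of 0.01, and the VEGF receptor Kdr, at 0.83, had an adjusted p of 0.467 by edgeR. Of 11 genes of the Tek and Eng pathways 1 rose, Id1 (0.49, adjusted p = 0.0404), a target of BMP signalling through SMAD proteins, and the median was 0.04. The Id1 call was lost without WT mouse 2 or 3 or GFAP-IL6 mouse 2 or 3 (edgeR adjusted p up to 0.27). Of 8 tested genes that bind or cleave Vwf or belong to Weibel-Palade bodies 2 rose, the membrane protein Cd63 (0.47, adjusted p = 0.00754), which is also found in lysosomes of other cells, and Rab27a (1.06, adjusted p = 0.0422), a GTPase of secretory granules. The Rab27a call was lost with any mouse left out (edgeR adjusted p 0.0535 to 0.214), with DESeq2 (0.0758), with limma (0.121) and at equal totals (0.17), and that of Cd63 without GFAP-IL6 mouse 3 (0.0721). The median of those 8 was 0.15.

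Of 15 genes that carry NF-kB and IL-6 signals to endothelium 14 were tested, and Socs3, the feedback inhibitor of the IL-6 receptor, was the single call (1.62, edgeR adjusted p = 0.0329). It was at 1.04, 1.16 and 1.31 CPM in WT and 2.0, 2.78 and 5.29 CPM in GFAP-IL6 mice. Without GFAP-IL6 mouse 3, the highest, its log2 fold change was 1.08 (edgeR adjusted p = 0.572), and the call was also lost without WT mouse 1 (0.138), WT mouse 2 (0.128) or GFAP-IL6 mouse 2 (0.0557). The median of the 14 was 0.60, and 13 were above 0.

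**Figure D5:**
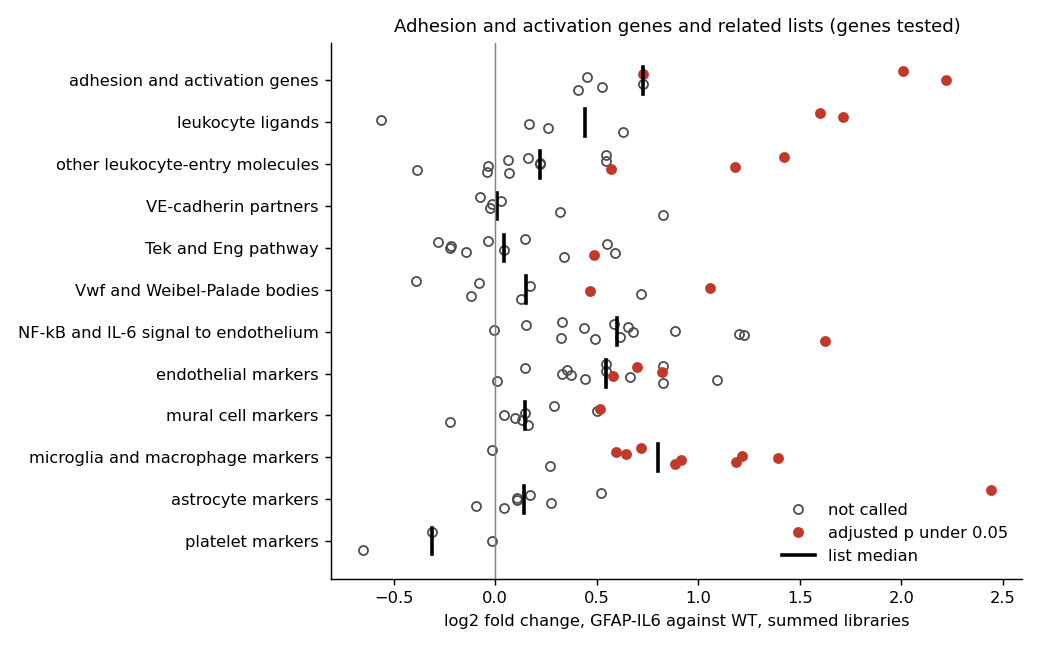
Log2 fold change of GFAP-IL6 against WT in the summed libraries for each tested gene of the adhesion and activation genes and of 11 related lists; filled red points passed an edgeR adjusted p under 0.05, open points did not, and black bars are list medians. The adhesion and activation genes have a median of 0.73, the endothelial markers of 0.55 and the microglia and macrophage markers of 0.80, while platelet markers lie at or below 0.

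Markers of some other cell types of the cortex were also called, where 1.74% of all genes were called higher. Of 9 tested mural cell markers 1 rose, Rgs5 of pericytes (0.52, edgeR adjusted p = 0.0206), with a median of 0.15. Of the 9, 8 were above 0. The 10 mural markers listed summed to 154.2 to 192.7 CPM in WT and 201.0 to 233.9 CPM in GFAP-IL6 mice, without overlap (exact permutation p = 0.1). The Rgs5 call was lost without WT mouse 2 or 3 or GFAP-IL6 mouse 1 or 3 (adjusted p up to 0.144). Of 8 astrocyte markers 1 rose, Gfap itself (2.44, edgeR adjusted p = 1.59e-06), with a median of 0.14 and 7 above 0. The 8 summed to 2939 to 3028 CPM in WT and 3320 to 3495 CPM in GFAP-IL6 mice, also without overlap (exact permutation p = 0.1). None of 8 neuron markers (median -0.04; Syt1 -0.16), 6 oligodendrocyte markers (median -0.12; Mog -0.15) or 5 fibroblast markers (median -0.16; Dcn 0.28) was called. Choroid plexus markers, absent from cortex itself, differed between mice of a genotype, from 109 to 4088 CPM in WT and 82.2 to 757 CPM in GFAP-IL6, with no call among the 5 (median -1.22; Kl -1.22, adjusted p = 0.543).

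The positions of the 9 genes bear on what was counted. Icam1 lies on chromosome 9 at 21015985-21028817 (mm10), with Icam4 starting 555 bp and Icam5 3255 bp away on the same strand. Sele and Selp lie 57586 bp apart on chromosome 1, at 164048234-164057677 and 164115264-164150026. The reads of 3'Pool-seq fall mainly on last exons, and those of 3 of the genes are overlapped by a gene on the other strand. For Eng (chromosome 2, 32646595-32682669) it is Fpgs, at 5.0 ± 0.489 CPM in WT and 6.21 ± 0.734 CPM in GFAP-IL6 mice, and since a strand setting for the counting is not given in the sources used here, reads of Eng and Fpgs cannot be told apart there. For Selp it is Gm16548, with 0 counts in WT and 1 in GFAP-IL6 mice, and for Icam1 it is Gm47079, which is not among the genes counted. Vwf lies on chromosome 6 at 125546774-125686679 on the plus strand, Icam2 on chromosome 11 at 106377656-106388075 and Vcam1 on chromosome 3 at 116109949-116129688, both on the minus strand. Cdh5 lies on chromosome 8 at 104101625-104144511 and Tek on chromosome 4 at 94739289-94874976. A search for near-identical 3′ ends in other genes matched Icam1 to Gm47079 and Selp to Gm16548, the overlapping genes named above, and found no match for the other 7.

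Over the 24 libraries, genes with a mean of at least 10 CPM were ranked by how closely their log2 CPM followed that of each gene. Vwf was most like C1qb (Pearson r = 0.949), Scgb3a1 (0.947) and Fcgr2b (0.947). Icam1 was most like Ifitm3 (0.936), Gfap (0.926) and Tspo (0.918). For Icam2 the closest were Cd53 (0.811), Alox5ap (0.797) and Ifitm3 (0.792), and for Vcam1 Itm2b (0.875), Ppt1 (0.835) and Dhx16 (0.824). Cdh5 was closest to Ccdc64 (0.783), Tek to Fut11 (0.752) and Eng to Cd302 (0.710), the lowest of the 7. The genes named for Vwf, Icam1 and Icam2 were themselves called higher in GFAP-IL6 mice, with log2 fold changes of 0.96 to 4.29. Those named for Vcam1, Cdh5, Eng and Tek were not called. These values are a description across 8980 genes, as the libraries share genotype, mice, sets and depth, and r includes the genotype difference.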

How the data were processed

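Frontal cortex RNA of 3 WT and 3 GFAP-IL6 mice was measured in 24 3'Pool-seq libraries. The authors trimmed polyA stretches, aligned reads with STAR 2.4 and counted uniquely aligned reads per gene of GENCODE vM6 with featureCounts; their methods give mm10 for mouse, while the submitters' processing notes list hg19. The authors deposited raw counts for 33000 genes without normalization, and the gene lengths beside them were not used for scaling. The 9 genes and all lists were chosen with earlier results of these data known.

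Groups came from the labels. Counts were summed per mouse and compared with edgeR 4.0.16 (R 4.3.3; quasi-likelihood test, TMM, filterByExpr, Benjamini-Hochberg over all genes tested), in the sums, in each set, and between cDNA amounts and sets with the mouse as a block. The study's methods name DESeq2; DESeq2 1.42.0 and limma 3.58.1 (voom, mouse as random block) were alternatives, with DESeq2's size factors, other filters, thinning to equal totals, left-out mice, single sets and a block of same-numbered mice. Deviations of same-numbered mice correlated at -0.05, -0.04 and -0.06, so the numbers were not taken as pairs. Members per marker count used a pseudocount of 0.5 and exact two-sided permutation tests. From each list the called genes were named, at most 3 with the smallest adjusted p, or the 1 with the smallest where none was called (1 such gene is not reported here), and for each tested member the 3 most similar genes (1 for Cdh5, Eng and Tek). Tests were checked on simulated data, in which the genotype calls of edgeR and DESeq2 held a larger share of false calls than the threshold sets. Positions came from GENCODE vM21 on mm10, which held all 9 genes, and near-identical ends from minimap2 2.31-r1302 (last 300 nt, at least 100 nt at 97% identity). Library totals of 1524165 to 12256374 counts set the precision, and intervals and the floor of 3 counts cover counting error only, since reads without molecular identifiers are not independent molecules.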

Additional observations from a re-analysis of the deposited data

How the results depend on the processing

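Over the main test of the summed libraries and 14 alternatives to it, Vwf (log2 fold change 2.12 to 2.39) and Icam1 (1.69 to 2.57) were called in all 15, Icam2 (0.63 to 0.90) in 7, Vcam1 (0.38 to 0.55) in 3 and Cdh5, Eng and Tek in none. Over these, edgeR, DESeq2 and limma gave adjusted p-values of 0.00377 to 0.306 for Icam2 and 0.0238 to 0.726 for Vcam1. Vcam1 passed without a filter, without GFAP-IL6 mouse 1 and, as a choice made after seeing the data, without the 2 shallowest mice. Leaving out each mouse gave 2 to 3 of the 7 genes called and 146 to 321 genes in all, lowest without GFAP-IL6 mouse 3, against 263. In those fits Cd4 ran from -0.59 to 0.99, Mog from -0.33 to 0.0073 and Dcn from -0.0038 to 0.66. With the replicate block of same-numbered mice, 2 of the 7 genes and 220 genes in all were called, Icam2, Socs3, Id1 and Rab27a had adjusted p-values of 0.0812, 0.072, 0.0557 and 0.123 (edgeR) and Cd4 was at 0.15. Without a filter 462 genes were called.

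In single sets the number of all genes called was 125 (2 ng A), 132 (2 ng B), 136 (1 ng A) and 140 (1 ng B). In 2 ng B 1 of the 7 genes was called, Tek was at -0.011 (0.056 by DESeq2) and Cd4 at 0.61. DESeq2, added after seeing the data, called 1 of the 7 genes and 74 genes in all in 2 ng A, where Icam1 had an adjusted p of 0.163.

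Between cDNA amounts the count of 4452 genes became 1696 with genotype in place of the mouse and 2580 in set B. In set A 1 of the 7 was called, Eng was at 0.093 and Tek at -0.19, and in set B Icam1 was at -0.039, Vcam1 at -0.18 and Cdh5 at -0.19. Between sets A and B the count of 3147 became 972 with genotype in place of the mouse, with 0 of the 7 called and Tek at -0.0024, and 689 with 1 ng, with 0 of the 7 called. With 2 ng 2 of the 7 were called, Icam1 was at 0.0059, Vwf at 0.050 and Tek at -0.29.

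Per marker count, leaving out 3 markers moved Vcam1 to 0.10 and Tek to 0.12, and the total of all genes in place of the markers moved them to 0.45 and 0.47, and Icam2, Cdh5 and Eng to 0.77, 0.69 and 0.55. Without single mice Icam2 ran from 0.10 to 0.41, Cdh5 from 0.10 to 0.29, Eng from -0.17 to 0.18 and Tek from -0.20 to 0.17. The cause of these changes was not tested. Depth limits Selp and Sele most, and 3 mice per genotype limit all genes.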
